A study of Mus musculus with 12 samples.

Results

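A set of 9 genes of regulatory T cells and of costimulation is described here across the cell classes and tumours of a single-cell RNA sequencing series: the transcription factors Foxp3 and Ikzf2, the interleukin-2 receptor chains Il2ra and Il2rb, the tumour necrosis factor (TNF) receptor family members Tnfrsf4, Tnfrsf18 and Tnfrsf9, the inhibitory receptor Klrg1 and the opioid precursor Penk. They are a list of genes given by name, among 18574 in the tables of the CD45 libraries and 19369 in those of the Total libraries, and earlier results of these data were known when it was drawn up. The question was how each gene is distributed over the annotated immune classes, how Foxp3+ cells compare with other T cell subtypes in each tumour, and how Foxp3+ cells differ among the tumours.

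Tumours were grown in the mammary fat pad of female BALB/c mice aged 9-11 weeks from cells of 4T1, a mouse mammary carcinoma line that serves as a model of triple-negative breast cancer and is accepted by hosts with an intact immune system. The groups carried either a line grown from a single cell, named Clone E, EM1, EM2, EM3 or M, or the Parental line. The labels name no treatment and no genetic change, and the clones stand for states from epithelial to mesenchymal, although the labels do not spell out the state of each clone. Each group was 1 tumour of 1 clone, so a clone cannot be told apart from the mouse and tumour that carried it. Every tumour gave a Total library and a CD45 library of cells held by magnetic beads that bind the leukocyte antigen CD45, 12 libraries in all with 28083101 to 122055131 unique molecular identifiers (UMIs) in 6709 to 13467 cells. A UMI marks 1 captured RNA molecule, and CPM is the UMI count of a gene scaled to a fixed total of UMIs in the same cells. Droplet barcodes were shared by 818 to 1760 cells between pairs of libraries within E and EM3, within EM1 and EM2, within M and within Parental, and by 46 to 211 cells between all other pairs. By these barcodes E and EM3 were treated as sharing a capture, and EM1 and EM2 as sharing another, whereas for other pairs of tumours the capture and the clone cannot be told apart.

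The Foxp3+ Cd4+ class of the authors' annotation held 1269 of 53602 cells of the CD45 libraries after removal of called doublets, against 8557 cells of the other T subtypes together. The tumours E, EM1, EM2, EM3, M and Parental gave 195, 211, 211, 363, 196 and 93 cells of it, with median depths of 987 to 1584 UMIs per cell. T cell markers summed to 3001 to 4314 CPM in the class and to 3247 to 4226 CPM in the other T subtypes. CD8 markers summed to 18.8 to 84.5 CPM in the class and to 319 to 1090 CPM in the others, and CD4 markers to 595 to 696 CPM against 378 to 691 CPM. The class thus carried T cell and CD4 markers and little CD8. Macrophage markers (803 to 1698 CPM in the class, 644 to 1845 CPM in the others) and granulocyte markers (1075 to 2364 CPM against 1034 to 2236 CPM) overlapped between them. The 4 mast cell and basophil markers summed to 0 to 99.5 CPM in the class and to 31.5 to 213.5 CPM in the others, were higher in the class only in Parental (99.5 against 31.5 CPM), and were all from Kit, with Cpa3, Mcpt8 and Ms4a2 at 0. The 5 dendritic cell markers, which include Ccr7 and H2-Aa, were higher in the class in 6 of 6 tumours (2486 to 3272 CPM against 1655 to 3041 CPM), most so in M (3272 against 1655 CPM). Much of this sum is Ccr7, with a median of 1842 CPM in the class and 1744 CPM in the others. Ccr7 is also on the list of naive T cell genes used here. Its log2 ratio of the class to the others was above 0 in 3 of 6 tumours, with a range of -0.41 to 1.01. What raised the sum in the class was not tested. The 4 tumour cell markers were higher in it in 5 of 6, all but EM2 (11.0 to 52.7 CPM against 4.91 to 11.7 CPM). Markers of NK cells (3.68 to 18.8 CPM in the class, 23.9 to 208.5 CPM in the others) and of dividing cells (90.4 to 130.1 CPM against 221 to 521 CPM) were lower in it in 6 of 6 tumours, without overlap. The other T subtypes include the dividing Mki67+ T cells, a class that also holds Foxp3 UMIs. The difference in dividing markers was thus set by the annotation and does not tell how often Foxp3+ cells divide. The part of these markers in the results below, the ratios of Il2rb included, was not tested. Since the classes had been drawn from these same cells, a difference between them in the CD45 libraries is given as a description without a test.

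Foxp3 is the transcription factor that defines regulatory T cells, which restrain other T cells and are abundant in many tumours. These cells carry the high-affinity receptor for interleukin-2, in which the alpha chain Il2ra joins the beta chain Il2rb and the common gamma chain, and they take up interleukin-2 made by other T cells, signalling through Jak kinases and Stat5. Tnfrsf4 (OX40), Tnfrsf18 (GITR) and Tnfrsf9 (4-1BB) are receptors of activated T cells that recruit Traf adaptors and drive NF-kB, and each has a ligand of the TNF family. Ikzf2 (Helios) is an Ikaros family factor of regulatory T cells, Klrg1 is a receptor for cadherins found on differentiated lymphocytes, and Penk encodes proenkephalin, which is cut by proprotein convertases into enkephalins, the ligands of opioid receptors.

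All 9 genes are protein coding, and their positions are those of the GENCODE annotation vM21 of build GRCm38. Foxp3 lies on chromosome X from 7573644 to 7595245, Il2ra on chromosome 2 from 11642807 to 11693193, Il2rb on chromosome 15 from 78479256 to 78495271, Ikzf2 on chromosome 1 from 69531214 to 69687245 and Klrg1 on chromosome 6 from 122270596 to 122282882. The other 4 are on chromosome 4, Penk from 4133531 to 4138819, Tnfrsf9 from 150914562 to 150946102, Tnfrsf4 from 156013843 to 156016612 and Tnfrsf18 from 156026164 to 156028895. Tnfrsf4 and Tnfrsf18 are next to each other in the same orientation with 9551 bases between them. Foxp3 overlaps Ppp1r3f and Ccdc22, and Tnfrsf9 overlaps Camta1, all on the opposite strand. Whether the counting used strand is not given in the sources used here, so reads of such partners may not be separable.

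Promoter windows of 250 bases before an annotated start were found for 5 of the 9 genes in the RefSeq table of GRCm38.p6. Those of Foxp3, Tnfrsf4 and Tnfrsf18 overlap annotated exons, and their sequences are not printed. The windows of Il2ra and of the downstream start of Tnfrsf9 are shown. The upstream Tnfrsf9 window overlaps no exon either, held no motif of the set and is left out. Both genes were higher with a Foxp3 UMI and, within the Foxp3+ class, with a Klrg1 UMI, as given further on. Capitals mark matches to the NF-kB consensus and, in Tnfrsf9, also TTCNNNGAA, a Stat5 motif, and TGANTCA, an AP-1 motif. The Il2ra window is chr2:11642542-11642791 on the plus strand, and the Tnfrsf9 window is chr4:150927749-150927998 on the plus strand.
Il2ra: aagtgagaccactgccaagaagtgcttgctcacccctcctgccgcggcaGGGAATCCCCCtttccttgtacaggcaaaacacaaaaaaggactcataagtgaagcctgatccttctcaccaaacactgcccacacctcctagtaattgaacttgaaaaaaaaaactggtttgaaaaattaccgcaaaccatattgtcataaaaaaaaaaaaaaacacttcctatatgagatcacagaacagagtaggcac
Tnfrsf9: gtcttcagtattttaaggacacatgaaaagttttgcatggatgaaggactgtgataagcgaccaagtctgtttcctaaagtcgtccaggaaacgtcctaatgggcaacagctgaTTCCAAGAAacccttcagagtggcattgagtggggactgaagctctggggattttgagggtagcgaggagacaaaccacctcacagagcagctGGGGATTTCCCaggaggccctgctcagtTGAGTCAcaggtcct

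On either strand, the NF-kB consensus was found in 3.9% of all 32851 promoter windows in the table, TTCNNNGAA in 7.02%, TGANTCA in 6.75%, the forkhead motif TGTTTAC in 3.17% and the Runx motif TGTGGTT in 4.4%. In each of the 2 windows shown, a pair of overlapping NF-kB matches forms 1 stretch, which begins 201 bases before the start in Il2ra and 43 bases before it in Tnfrsf9. The Tnfrsf9 window also holds TTCCAAGAA beginning 136 bases and TGAGTCA beginning 15 bases before the start. TTCNNNGAA was further found in the window of the downstream Foxp3 start and in that of Tnfrsf18, and no motif of the set was found in those of Tnfrsf4, the upstream Foxp3 start and the upstream Tnfrsf9 start. A match is a run of letters and not a measured binding site.

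Across the immune classes of the CD45 libraries, Foxp3, Ikzf2, Tnfrsf4, Tnfrsf18, Tnfrsf9, Klrg1 and Penk had their highest median level in the Foxp3+ Cd4+ class, and Il2ra and Il2rb did not. Foxp3 stood at 2212 CPM in E, 2328 CPM in EM1, 2293 CPM in EM2, 2039 CPM in EM3, 2052 CPM in M and 2036 CPM in Parental, an even level over the 6 tumours. Among classes with at least 20 cells in a tumour, the next were the dividing Mki67+ T cells with 198 to 554 CPM over 4 tumours and the Cd44+ Cd4+ cells with 18.5 to 318 CPM, whose ranges overlapped. Of all Foxp3 UMIs in the CD45 libraries, 69.6% were in the Foxp3+ class, 10.7% in Mki67+ T cells and 6.98% in Cd44+ Cd4+ cells. A Foxp3 UMI was seen in 73% to 87.7% of the cells of the class, at a median depth of 987 to 1584 UMIs, and in 0.0715% to 0.78% of granulocytes, at a median depth of 690.5 to 1223 UMIs, a level that free RNA may give.

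**Figure D1:**
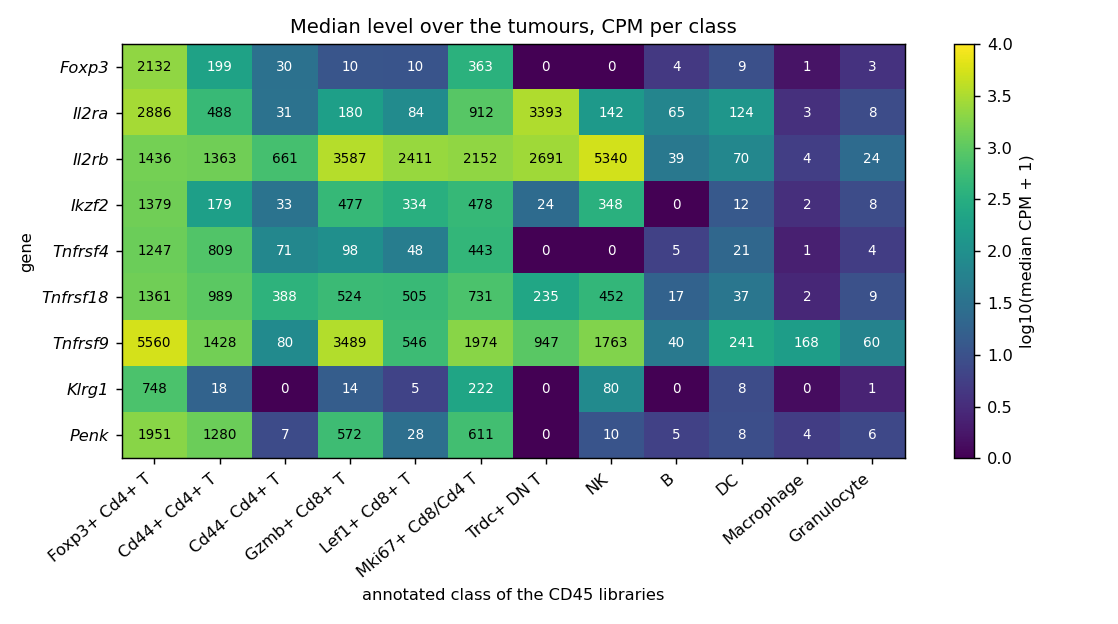
Level of the 9 genes (rows) in 12 annotated classes of the CD45 libraries (columns), as the median CPM over the tumours with at least 20 cells of the class, printed in each cell and coloured by log10(median CPM + 1). The first column, the Foxp3+ Cd4+ class, holds the highest value of 7 genes, and Il2rb is highest in NK cells (5340 CPM) and Il2ra in Trdc+ DN T cells (3393 CPM).

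By the share of UMIs pooled over the CD45 libraries, Klrg1 was the member most nearly limited to the Foxp3+ class after Foxp3 itself (69.6%). It reached 746 CPM in E, 630 CPM in EM1, 751 CPM in EM2, 1029 CPM in EM3, 1145 CPM in M and 689 CPM in Parental, and 68.7% of its UMIs in the CD45 libraries lay in the class. Mki67+ T cells followed with 62 to 251 CPM and NK cells, which are known to carry the receptor, with 45.5 to 206 CPM. Gzmb+ Cd8+ cells, the cytotoxic class, stood at 0 to 17.4 CPM over 5 tumours and so did not overlap the Foxp3+ class. A Klrg1 UMI was seen in 31.8% to 49.6% of Foxp3+ class cells and in at most 0.407% of granulocytes. After thinning of every cell to 1000 UMIs, which left 59 to 329 cells of the class per tumour, the share was 29.8% to 51.2%.

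Ikzf2 stood at 1125 to 1570 CPM in the Foxp3+ class, with its lowest level in Parental and its highest in M. Gzmb+ Cd8+ cells (427 to 667 CPM) and Mki67+ T cells (421 to 590 CPM) overlapped each other below it, and Cd44+ Cd4+ cells held 83.3 to 249 CPM. Of the Ikzf2 UMIs, 34.5% were in the Foxp3+ class and 23.5% in Gzmb+ Cd8+ cells, so that the factor was shared with the cytotoxic class, although at a lower level.

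The interleukin-2 receptor chains differed from each other in where they were found. Il2ra stood at 2814 CPM in E, 2992 CPM in EM1, 2507 CPM in EM2, 2958 CPM in EM3, 3483 CPM in M and 2710 CPM in Parental within the Foxp3+ class. The Trdc+ DN T cells, which carry the delta chain of the gamma-delta T cell receptor, reached 3160 CPM in E, 3393 CPM in EM1, 1783 CPM in EM2 and 6338 CPM in M, on 18 to 25 cells each, and their range overlapped that of the Foxp3+ class. EM3 and Parental had only 6 and 8 such cells. Cd44+ Cd4+ cells held 340 to 1035 CPM and dendritic cells 66.3 to 278 CPM of Il2ra. Il2rb ranged from 1204 to 1594 CPM in the Foxp3+ class and from 1218 to 1607 CPM in Cd44+ Cd4+ cells, and these ranges overlapped. It was higher in NK cells (4359 to 5967 CPM) and in Gzmb+ Cd8+ cells (2419 to 3873 CPM), whose ranges did not overlap each other or that of the Foxp3+ class.

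Among the TNF receptors, Tnfrsf4 stood at 1018 to 1424 CPM in the Foxp3+ class and at 519 to 862 CPM in Cd44+ Cd4+ cells, without overlap, and at 0 to 34.3 CPM in NK cells. Mki67+ T cells held 351 to 689 CPM of it over 4 tumours, and Cd44- Cd4+ cells (54.0 to 88.0 CPM) overlapped Gzmb+ Cd8+ cells (56.9 to 174 CPM). Tnfrsf18 ranged from 1152 to 1553 CPM in the Foxp3+ class, from 857 to 1034 CPM in Cd44+ Cd4+ cells, from 471 to 552 CPM in Gzmb+ Cd8+ cells and from 360 to 537 CPM in NK cells. Of the Tnfrsf18 UMIs, 21.8% were in the Foxp3+ class and 20.1% in Cd44+ Cd4+ cells, the widest spread over T cells of the 3 receptors. Tnfrsf9 stood at 5113 to 6899 CPM in the Foxp3+ class, at 1830 to 3603 CPM in Gzmb+ Cd8+ cells and at 1028 to 2111 CPM in NK cells. Macrophages held 123 to 375 CPM of Tnfrsf9, and as the most numerous class with 23876 cells they held 43.7% of its UMIs, against 15.6% in the Foxp3+ class. A Tnfrsf9 UMI was seen in 22.8% to 43.1% of macrophages at a median depth of 5124 to 7675.5 UMIs and in 2.54% to 8.75% of granulocytes.

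Penk had its highest median levels in 2 CD4 classes, and which of them had the higher summed level differed by tumour. In the Foxp3+ class it stood at 2119 CPM in E, 1736 CPM in EM1, 1075 CPM in EM2, 1783 CPM in EM3, 2915 CPM in M and 2778 CPM in Parental. In Cd44+ Cd4+ cells it stood at 2263 CPM in E, 531 CPM in EM1, 1507 CPM in EM2, 3443 CPM in EM3, 1053 CPM in M and 377 CPM in Parental. The Foxp3+ class was thus the higher of the 2 in EM1, M and Parental, and the Cd44+ Cd4+ class in EM2 and EM3, with Poisson intervals apart. In E the 2 classes were near each other, with overlapping intervals (1970 to 2276 against 2141 to 2391 CPM). Gzmb+ Cd8+ cells also held Penk, at 365 CPM in E, 866 CPM in EM1, 745.5 CPM in EM2, 572 CPM in EM3 and 247 CPM in M, in EM1 above the Cd44+ Cd4+ cells, and Mki67+ T cells held 497 to 694 CPM over 4 tumours. Of all Penk UMIs, 35.8% were in Cd44+ Cd4+ cells and 28.2% in the Foxp3+ class. Only 16.9% to 33.2% of Foxp3+ class cells had a Penk UMI, the lowest share among the 9 genes, against 0.121% to 1.7% of granulocytes. The median share over the tumours was 15.6% in Gzmb+ Cd8+ cells and 8.96% in Cd44+ Cd4+ cells. In the latter it ranged from 1.8% to 13.3%, without overlap with the Foxp3+ class. Penk UMIs thus lay in few cells of both CD4 classes, so the intervals are too narrow for the order of the 2 classes within a tumour. Outside the leukocytes, fibroblasts of the Total libraries held 312 to 806 CPM of Penk.

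In each tumour, the Foxp3+ class was compared with the summed cells of the other T subtypes by the log2 ratio of CPM with 10 CPM added to both. Of the 9 members, 8 had a ratio above 0 in 6 of 6 tumours, as did 13.2% of 5160 genes with at least 50 CPM. Of these, 6 (Foxp3, Il2ra, Ikzf2, Tnfrsf4, Tnfrsf9 and Klrg1) had a ratio of 1 or more in every tumour, as did 2.31% of those genes. Foxp3 names the class, so its place in both counts was set by the annotation. The list was also drawn up with earlier results of these data known, so both counts are a description. The median log2 ratio over the tumours was 4.58 for Foxp3, 4.40 for Klrg1, 3.17 for Il2ra, 2.29 for Ikzf2, 2.17 for Tnfrsf4, 1.96 for Penk, 1.82 for Tnfrsf9 and 1.22 for Tnfrsf18. Tnfrsf18 had the narrowest range, from 0.78 in M to 1.36 in E, and Penk the widest, from 0.72 in EM3 to 4.85 in Parental.

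Il2rb was the exception, with a median log2 ratio of -0.34. It was lower in the Foxp3+ class than in the other T subtypes in E (1210 against 2314 CPM), EM1 (1594 against 1849 CPM), EM2 (1424 against 1679 CPM), EM3 (1204 against 2337 CPM) and M (1514 against 2066 CPM), and higher in Parental alone (1447 against 898 CPM). The direction depended on the comparison class: against the other CD4 subtypes the median ratio was 0.53, with 4 of 6 tumours above 0, and against Cd44+ Cd4+ cells alone it was -0.04. The tumours not above 0 were EM3 and M, where Cd44- Cd4+ cells were 60 of 482 and 40 of 319 other CD4 cells. In E, EM1, EM2 and Parental they were 402 of 743, 1433 of 1859, 859 of 1169 and 534 of 645, at 494 to 707 CPM of Il2rb. The part of this make-up in the ratio of Il2rb was not tested. Against Cd44+ Cd4+ cells, the median ratios of Foxp3 (3.35), Il2ra (2.51), Tnfrsf4 (0.77), Penk (0.68) and Tnfrsf18 (0.50) were smaller than against all other T subtypes, and those of Klrg1 (4.78), Ikzf2 (2.73) and Tnfrsf9 (1.96) larger. The ratio of Penk was above 0 in 3 of 6 tumours there.

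**Figure D2:**
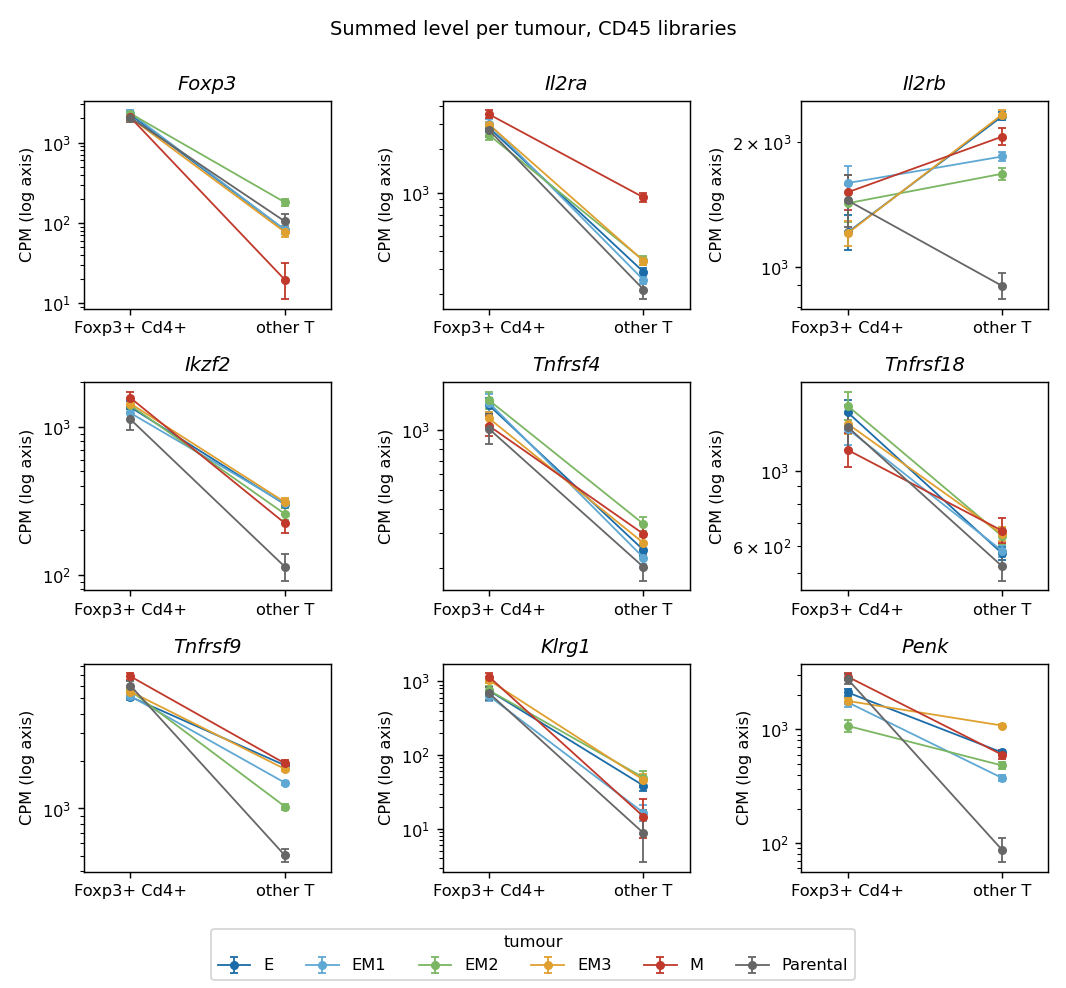
Level of each gene (CPM, log axis, a scale of its own in each panel) in the Foxp3+ Cd4+ class and in all other T subtypes, with 1 line per tumour and bars for exact Poisson 95% intervals, which cover counting error only. Lines slope down in all 6 tumours for 8 genes, and for Il2rb they slope up in 5 tumours and down in Parental.

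The other T subtypes themselves differed among the tumours. In them, Tnfrsf9 stood at 504 CPM in Parental and at 1029 to 1934 CPM in the other tumours, and Penk at 86.9 CPM in Parental and at 374 to 1082 CPM elsewhere. Il2ra stood at 930 CPM in M and at 215 to 342 CPM elsewhere, and Foxp3 itself at 19.6 CPM in M and 77.2 to 180 CPM elsewhere. Parental had 8 Gzmb+ Cd8+ cells, against 63 to 688 in the other tumours. Cd44- Cd4+ cells, at 0 to 33.0 CPM of Penk, were 534 of the 702 other T cells in Parental. They were 402 of 1595 in E, 1433 of 2810 in EM1, 859 of 1613 in EM2, 60 of 1350 in EM3 and 40 of 487 in M. Of the 758 Il2ra UMIs of the other T subtypes in M, 262 came from 25 Trdc+ DN T cells. The part of this make-up in the ratios was not tested.

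The Total libraries hold the same tumours in cells that were annotated separately, with T and NK cells as 1 class, and allowed a test that does not use the Foxp3+ class. T and NK cells with at least 1 Foxp3 UMI were set against those with none, with counts summed per tumour and the tumour as block, in edgeR's quasi-likelihood test with Benjamini-Hochberg adjustment over 8694 genes. In the order E, EM1, EM2, EM3, M and Parental there were 273, 111, 179, 176, 192 and 67 cells with the UMI, or 7.4% to 17.7% of the T and NK cells. Median depths were 1068 to 1951.5 UMIs with the UMI and 1084 to 2134.5 without. Since only 73% to 87.7% of annotated Foxp3+ cells had a Foxp3 UMI in the CD45 libraries, the arm without the UMI also holds some such cells.

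Of the 8 other members, 7 rose with a Foxp3 UMI, where 10.3% of all genes rose, and 1 fell, where 9.55% of all genes fell. The members and the gene lists below were chosen with earlier results of these data known, and the Total and CD45 libraries share their tumours. Such counts beside the share of all genes are thus a description. The median log2 fold change of the 8 was 2.12, against -0.02 over all genes tested. Klrg1 rose by 3.61 on the log2 scale (SE 0.17, adjusted p = 3.9e-13), and its level with a Foxp3 UMI was 393 CPM in E, 567.9 CPM in EM1, 482 CPM in EM2, 801 CPM in EM3, 902 CPM in M and 363 CPM in Parental, against 20.8 to 93.8 CPM without. Il2ra rose by 3.28 (SE 0.14, adjusted p = 1.5e-13), from 176 to 757 CPM without to 1830 to 3806 CPM with the UMI. The arms did not overlap over the tumours for either gene. Tnfrsf4 rose by 2.74 (SE 0.13, adjusted p = 5.4e-13), Penk by 2.19 (SE 0.15, adjusted p = 9.8e-11) and Ikzf2 by 2.05 (SE 0.16, adjusted p = 1.2e-09). The smallest rises were those of Tnfrsf9 (1.52, SE 0.16, adjusted p = 1.1e-07) and Tnfrsf18 (1.3, SE 0.10, adjusted p = 6.3e-10), and each of the 7 was higher in 6 of 6 tumours.

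Il2rb fell by 0.66 on the log2 scale (SE 0.11, adjusted p = 6.0e-05, edgeR) and was lower with a Foxp3 UMI in 6 of 6 tumours, from 0.477 times its level without the UMI in E to 0.917 times in Parental. Markers of cytotoxic cells moved with this comparison: Cd8a fell by 3.33, Nkg7 by 2.60 and Ncr1, an NK cell receptor, by 3.25, while Cd3e did not pass the test (0.10, adjusted p = 0.58). Among cells with a Cd4 UMI and no Cd8a or Cd8b1 UMI, the direction of Il2rb turned, with a rise of 0.59 (SE 0.14, adjusted p = 0.0017, edgeR), and Penk rose by only 0.64 (adjusted p = 0.021) and Tnfrsf4 by 1.18. Among those cells Ikzf2 rose by 3.02, more than in the full comparison. The annotation of the Total libraries has no CD4 subtypes, so the make-up of the CD4 cells without the UMI is not known. In all T cells of the CD45 libraries, Il2rb did not pass edgeR's test (-0.33, adjusted p = 0.12), and the other 7 rose. In that fit, 1131 of 8142 genes rose and 1062 fell. The classes were drawn from these same cells, so the fit nearly repeats the class comparison and is no separate support for it.

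**Figure D3:**
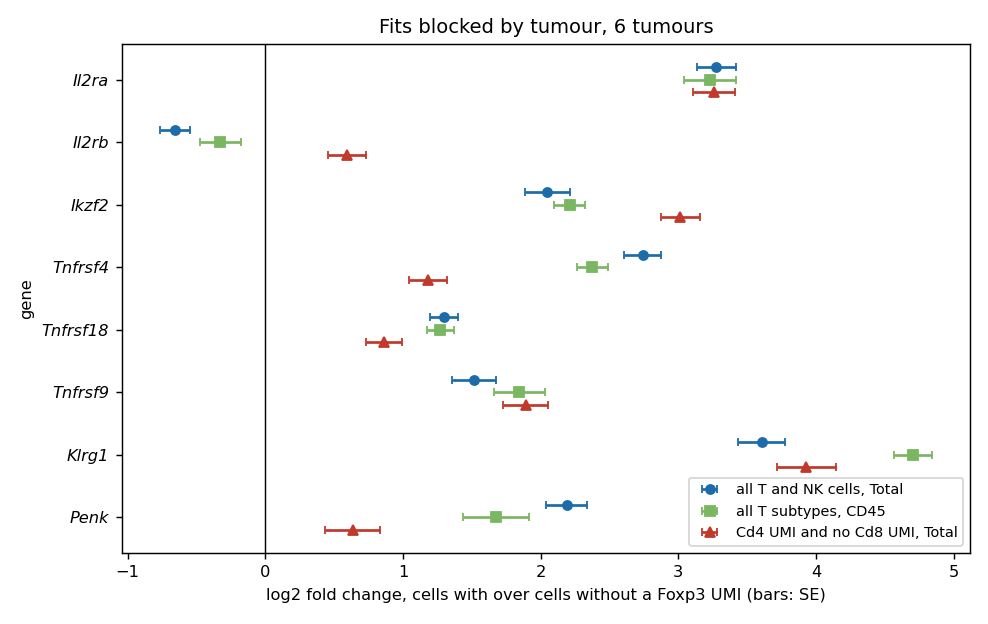
Log2 fold change of the 8 other genes between cells with and without a Foxp3 UMI, from edgeR fits blocked by tumour, with bars for the standard error, in 3 sets of cells. All values but those of Il2rb lie right of 0, and Il2rb lies at -0.66 over all T and NK cells and at 0.59 among cells with a Cd4 UMI and no Cd8 UMI. The set of all T cells of the CD45 libraries holds the cells from which the classes were drawn.

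Among genes past the test and of the same sign in every tumour, the largest rises in the Foxp3 comparison were those of Ermn, Rln3, Tnfrsf8, Ky, Itgb8, Ccr6, Dgat2, Klrg1, Ccr3 and Ncmap, with log2 fold changes of 3.43 (Ncmap) to 4.57 (Ermn), so that Klrg1 was the only member among them. Rln3, a relaxin family peptide, had a median of 259 CPM with and 11.9 CPM without a Foxp3 UMI, and Itgb8, an integrin that activates transforming growth factor beta, 194 against 13.2 CPM. The largest falls, under the same rule, were those of Gzmc, Gzmf, Il13, Xcl1, Car2, Klre1, Trdc, Gzme, Ccl1 and Gzmd, from -5.57 (Gzmc) to -4.06 (Gzmd). Of these, Gzmc, Gzmd, Gzme and Gzmf are granzymes, Il13 is a cytokine and Xcl1 and Ccl1 are chemokines.

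Of a list of 22 other regulatory T cell genes, 21 were tested, 17 rose and 1 fell, where 10.3% of all genes rose and 9.55% fell, and their median log2 fold change was 1.78, against -0.02 over all genes. Lrrc32, the surface anchor of latent transforming growth factor beta, rose by 3.38 on the log2 scale, Il1rl1, the interleukin-33 receptor, by 3.22, Itgae by 3.16, Izumo1r by 2.96 and the checkpoint receptor Ctla4 by 2.36. Ccr8 rose by 2.01, and the cytokine Il10 by 1.78 with 4 of 6 tumours higher. Lag3 fell by 1.37, and Nrp1 (0.45), Nt5e (-0.30) and Entpd1 (0.16) did not pass the test. In the Ikaros family, Ikzf4 (Eos) rose by 2.51 and Ikzf1 fell by 0.80, while Ikzf3 (0.06) and Ikzf5 (-0.39) did not pass the test.

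The next 3 lists are set against the same 10.3% of genes that rose and 9.55% that fell. Of 8 adaptor and NF-kB genes (median 0.45), 7 rose with a Foxp3 UMI: Traf3 by 1.11, Traf1 by 0.97, Birc3 by 0.86, Nfkb1 by 0.46, Nfkb2 by 0.45, Traf2 by 0.38 and Relb by 0.32 on the log2 scale, and Traf5 (-0.01) did not pass the test. Of the interleukin-2 pathway, 10 of 12 genes were tested (median 0.26), of which 4 rose, Stat5a by 1.05, Socs2 by 0.94, Jak3 by 0.61 and Stat5b by 0.54, and 2 fell, the survival gene Bcl2 by 1.99 and Jak1 by 0.46. The common gamma chain Il2rg was 0.23 higher, and Cish 0.30 higher, without passing the test (adjusted p = 0.094 and 0.13, edgeR). Of 9 other costimulatory genes, which are receptors but for the CD40 ligand Cd40lg (median 0.35), 4 rose and 2 fell: Tnfrsf8 (CD30) rose by 4.45, Icos by 1.46, Tnfrsf25 by 1.41 and Tnfrsf1b by 0.47, and Cd226 fell by 2.25 and Cd40lg by 1.65.

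The ligands of the receptors were set beside them by class. Tnfsf4, the ligand of Tnfrsf4, stood at a median of 164 CPM in Gzmb+ Cd8+ cells, 120 CPM in NK cells, 55.6 CPM in dendritic cells and 7.59 CPM in the Foxp3+ class, and in the Total libraries it fell by 3.37 on the log2 scale with a Foxp3 UMI (adjusted p = 5.4e-10, edgeR). Tnfsf18, the ligand of Tnfrsf18, had no UMI among 1946103 in the Foxp3+ class, which allows up to 1.54 CPM, and at most 11.0 CPM in any tumour and class of at least 20 cells in the CD45 libraries. Tnfsf9, the ligand of Tnfrsf9, had its highest median among the CD45 classes in Cd44+ Cd4+ cells (26.4 CPM), and 8.05 CPM in the Foxp3+ class, against 13.7 CPM in the other T subtypes together. Il2 also had no UMI in the Foxp3+ class, with the same limit of 1.54 CPM. In Cd44+ Cd4+ cells it stood at 201.4 CPM in M, on 87 UMIs, and at 0 to 6.3 CPM in the other 5 tumours, which each had at most 2 UMIs.

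Cdh1 (E-cadherin), a ligand of Klrg1, stood in the tumour cells of the Total libraries at 746 CPM in E, 25.9 CPM in EM1, 24.6 CPM in EM2, 3.1 CPM in EM3, 4.17 CPM in M and 52.1 CPM in Parental. E was thus far above the others. EM3 and M, with the lowest Cdh1, had the highest Klrg1 in the Foxp3+ class (1029 and 1145 CPM), and the Klrg1 intervals of the other 4 tumours overlapped each other there. In Foxp3-UMI cells of the Total libraries, the order of Klrg1 was Parental (363 CPM), E (393 CPM), EM2 (482 CPM), EM1 (567.9 CPM), EM3 (801 CPM) and M (902 CPM), with E below EM1 by intervals that lay apart. These levels of 6 tumours are a description, and a relation between both genes was not tested. Cdh2, another cadherin ligand, had 1 to 17 UMIs in the tumour cells of each tumour, at most 0.387 CPM, and Cdh4 was not analysed here. Pcsk1, a convertase that cuts proenkephalin, stood in the Foxp3+ class at 33.8 CPM in E, 19.2 CPM in EM1, 62.6 CPM in EM2, 28.7 CPM in EM3, 79.1 CPM in M and 68.9 CPM in Parental, on 5 to 21 UMIs each. Its next highest median was 8.17 CPM in Mki67+ T cells, and in Cd44+ Cd4+ cells it was 1.93 CPM. The opioid receptors Oprd1 and Oprk1 had no UMI in the Foxp3+ class.

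To see how Foxp3+ cells differ among the tumours, pairs of tumours were set side by side by the log2 ratio of CPM, and, with 1 tumour each, without a test. A gene was counted as past the fold where it differed by at least 2 times with Poisson intervals apart and had at least 50 CPM in either tumour. These intervals cover counting error and not the spread between cells. No member was past it in M over E, where 1.63% of 5086 genes were higher and 2.18% lower. The same held for EM3 over E (0.387% higher and 0.713% lower), EM1 over EM2 (0.603% and 0.703%) and Parental over M (1.27% and 0.799%). The Poisson intervals lay apart, in either direction, for 7 of 9 members in M over E, where they did so for 8.14% of all genes and for 42.4% of the 340 genes with at least 500 CPM in either tumour. All members were above that level, which was chosen after their levels were known, and intervals narrow as counts grow. They lay apart for 2 members in EM3 over E (4.34% of all genes and 22.0% of those above 500 CPM), for 2 in EM1 over EM2 (3.03% and 20.5%) and for 4 in Parental over M (3.94% and 25.4%). In EM3 over E and EM1 over EM2 the members' share was thus near that of genes of such levels.

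Between M and E, the members did not move as 1 block. Klrg1 (0.61), Penk (0.46), Tnfrsf9 (0.43), Il2rb (0.32) and Il2ra (0.31) were higher in M on the log2 scale, and Tnfrsf18 (-0.36) and Tnfrsf4 (-0.35) were lower, each with intervals apart. Foxp3 (-0.11) and Ikzf2 (0.21) had overlapping intervals. Foxp3-UMI cells of the Total libraries gave the same directions for Klrg1 (1.18), Il2ra (1.05), Tnfrsf9 (0.98), Penk (0.66), Tnfrsf18 (-0.31) and Tnfrsf4 (-0.27), of which Klrg1 and Il2ra were past the fold, where 3.37% of 5249 genes were higher and 2.1% lower. They gave -0.003 for Il2rb and 0.32, with intervals apart, for Ikzf2. Marker sums in the class differed as well, with T cell markers at 3001 CPM in M and 3999 CPM in E, granulocyte markers at 1977 and 1593 CPM, dendritic cell markers, Ccr7 among them, at 3272 and 2662 CPM and macrophage markers at 945 and 909 CPM, and their part in the differences was not tested. Both libraries of a tumour come from the same tumour, so they do not show the spread between tumours of a clone.

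EM3 and E, treated as sharing a capture by their barcodes, differed in Klrg1 (0.46 in the CD45 and 1.01 in the Total libraries, higher in EM3). In the latter it was past the fold, where 1.23% of genes were higher and 1.02% lower. In the Foxp3+ class, macrophage markers stood at 1698 CPM in EM3 and 909 CPM in E and granulocyte markers at 2364 and 1593 CPM, and their part was not tested. Penk was lower in EM3 by the CD45 libraries (-0.25) and higher by the Total libraries (0.23), where Il2ra (0.70) and Tnfrsf9 (0.68) were also higher, and Tnfrsf4 (-0.29) and Tnfrsf18 (-0.27) lower, with intervals apart. EM1 and EM2, treated as sharing another, differed in Penk (0.69) and Il2ra (0.25) by the CD45 libraries, and by the Total libraries neither had intervals apart (0.12 and -0.09) and no member was past the fold (0.712% of genes higher and 0.766% lower). Between EM1 and EM2 these marker sums were closer (803 and 917 CPM for macrophages, 1168 and 1075 CPM for granulocytes), and between Parental and M they were 1577 and 945 CPM and 1179 and 1977 CPM, untested in the same way. Over M, Parental had less Klrg1 (-0.72), Ikzf2 (-0.48), Il2ra (-0.36) and Tnfrsf9 (-0.20), with intervals apart. Its Penk was near that of M by the CD45 libraries (-0.07) and far below it by the Total libraries (-1.74, or 743 against 2506 CPM, on 67 and 192 cells). There Klrg1 (-1.29) and Penk were past the fold, where 1.88% of genes were higher and 1.26% lower, and Tnfrsf9 (-0.78), Il2ra (-0.76) and Il2rb (-0.48) were lower with intervals apart. Penk UMIs lay in few cells, 16.9% to 33.2% of the Foxp3+ class per tumour. Its intervals are thus too narrow for the differences between tumours given here. Intervals in these Foxp3-UMI cells lay apart for 7 members in M over E, where they did so for 13.7% of all genes and 56.3% of those above 500 CPM, and for 6 in EM3 over E (7.47% and 34.5%). They lay apart for none in EM1 over EM2 (3.14% and 16.5%) and for 5 in Parental over M (4.93% and 31.8%).

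**Figure D4:**
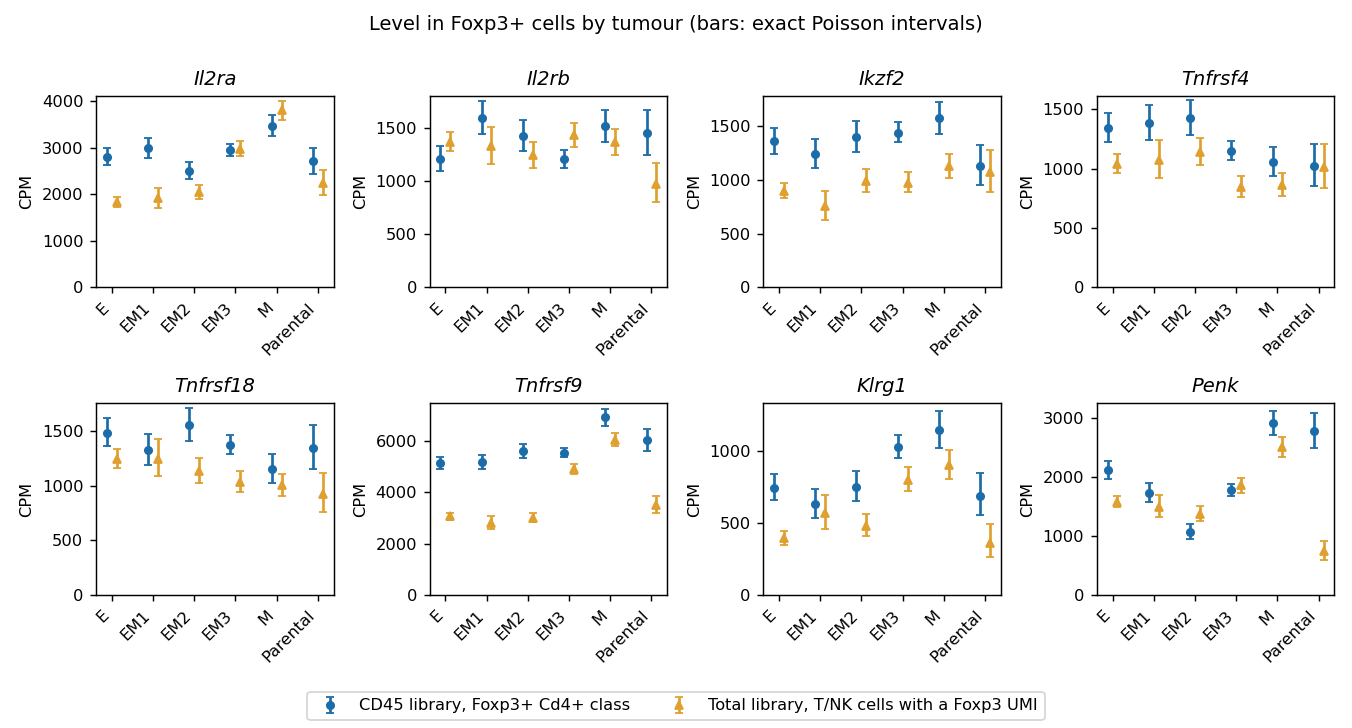
Level (CPM, axis from 0) of the 8 other genes in the 6 tumours, in the Foxp3+ Cd4+ class of the CD45 library (circles) and in T/NK cells with a Foxp3 UMI of the Total library (triangles), with exact Poisson 95% intervals. M has the highest value of Il2ra, Ikzf2, Tnfrsf9, Klrg1 and Penk in both kinds of library, and Parental has 2778 CPM of Penk in the first and 743 CPM in the second.

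Cells of the Foxp3+ class were then split by a Klrg1 UMI, to see which genes go with it among Foxp3+ cells. The arms held 34 to 180 cells with and 59 to 183 cells without the UMI per tumour, at median depths of 1144 to 1760.5 and 943.5 to 1429 UMIs, so that cells with the UMI were deeper in all 6 tumours. Of the 8 other members, 3 rose with a Klrg1 UMI, where 2.09% of 3628 genes rose, and none fell, where 1.13% of genes fell. Their median log2 fold change was 0.19, against -0.01 over all genes tested. Il2ra rose by 0.90 (SE 0.08, adjusted p = 8.9e-10), from a median of 1990 to 3868 CPM over the tumours, and Penk by 0.67 (SE 0.11, adjusted p = 7.1e-05), from 1570 to 2307 CPM, each higher in 6 of 6 tumours. Tnfrsf9 rose by 0.29 (SE 0.07, adjusted p = 0.013), also in 6 of 6. That call of Tnfrsf9 was lost in DESeq2 (adjusted p = 0.098), with at least 2 Klrg1 UMIs (0.052), without E (0.082), without EM2 (0.064) and without the block (0.37), where Penk was lost too (0.28).

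Foxp3 itself was 0.14 higher with a Klrg1 UMI (SE 0.08, adjusted p = 0.46), Ikzf2 0.10 (0.71), Tnfrsf18 0.10 (0.71), Il2rb 0.24 (0.18) and Tnfrsf4 -0.12 (0.63), with adjusted p in brackets and none past edgeR's test. Among genes past the test and of the same sign in every tumour, Rln3 (1.24), Nkg7 (1.23), Itgb3 (1.18), S100a6 (1.01), Serpinb6a (0.96), Il3ra (0.94), Adap1 (0.93), Il2ra, Cmtm7 (0.87) and Dctn4 (0.83) had the largest rises. Lrig1 (-1.86), Trbv31 (-1.16), Cbarp (-1.09), Bcl6 (-1.07), Myo3b (-1.05), Cd68 (-1.01), Marcksl1 (-0.96), Mgat5 (-0.93), Dtx4 (-0.89) and S1pr1 (-0.88) had the largest falls by the same rule. Bcl6 is the factor of follicular T cells, and S1pr1 the receptor by which T cells leave lymph nodes. Of the other regulatory T cell genes, Entpd1 (0.73), Il1rl1 (0.50) and Capg (0.41) rose among 19 tested and none fell, and of the naive T cell genes S1pr1 and Klf2 (-0.68) fell among 5 tested and none rose, where 2.09% of all genes rose and 1.13% fell.

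A Penk UMI split the same class into 28 to 87 cells with and 65 to 276 cells without it, at median depths of 992 to 1731 and 945 to 1544 UMIs. Cells with the UMI were deeper in 5 of 6 tumours, all but EM2, and the part of depth in the changes was not tested beyond the thinning given further on. None of the 8 other members passed the test by edgeR, where 0.694% of 3313 genes rose and 0.241% fell. By edgeR and by DESeq2 alike, 2 of the 8, Klrg1 and Il2ra, had an unadjusted p under 0.05 and none an adjusted one. Over all genes, 272 of 3313 had such an unadjusted p by edgeR, and 108 genes by DESeq2. Klrg1 was 0.42 higher (SE 0.12, adjusted p = 0.12) and Il2ra 0.37 higher (SE 0.11, adjusted p = 0.12), and Tnfrsf18 (0.01) and Tnfrsf4 (0.02) differed least. Klrg1 passed without Parental (adjusted p = 0.038) and Il2ra without E (0.042). Among genes past the test and of the same sign in every tumour, those that rose most were Havcr2 (1.05), Lta4h (0.95), Cd81 (0.94), Ccr8 (0.84), Bmyc (0.81), Rln3 (0.73), Baz1b (0.71), Jdp2 (0.60), Itgb8 (0.59) and Runx2 (0.57), of which Havcr2 (TIM-3) is an inhibitory receptor and Ccr8 a chemokine receptor of tumour regulatory T cells. S1pr1 (-1.19), Ikzf3 (-0.79), Neurl3 (-0.60), Trp53inp1 (-0.57) and Samhd1 (-0.54) fell. Of 17 other regulatory T cell genes tested, Ccr8 and Il1r2 (0.84) rose and none fell, and of 5 naive T cell genes Ccr7 (0.89) rose and S1pr1 and Klf2 (-0.61) fell, beside the 0.694% and 0.241% of all genes.

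**Figure D5:**
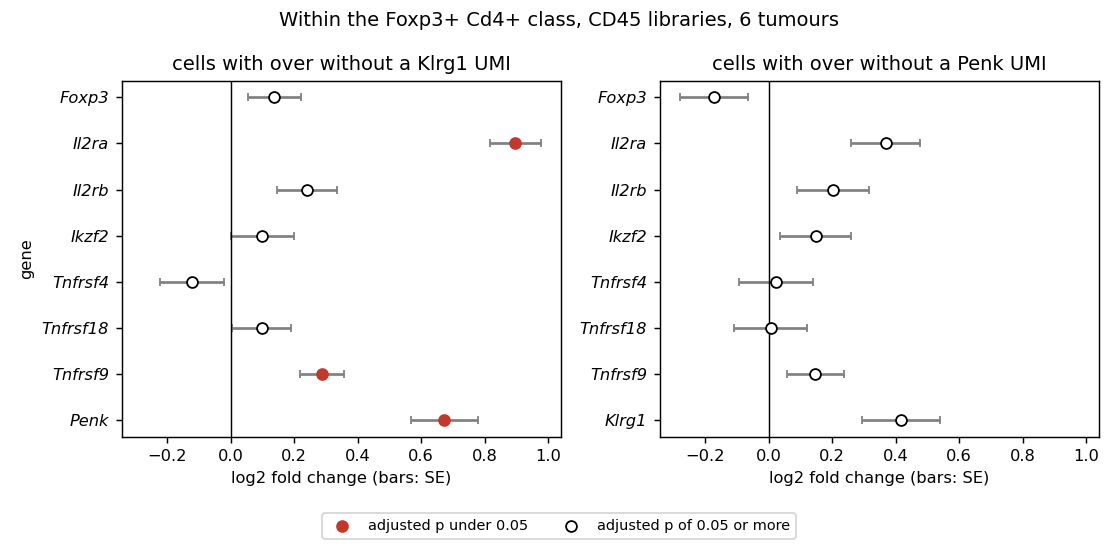
Log2 fold change of the other 8 genes between cells of the Foxp3+ Cd4+ class with and without a Klrg1 UMI (left) or a Penk UMI (right), from edgeR fits blocked by tumour, with bars for the standard error and filled points for an adjusted p under 0.05. Il2ra (0.90), Penk (0.67) and Tnfrsf9 (0.29) are filled on the left and no gene on the right.

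Over 85 sums of class and tumour with at least 20 cells, each member was also set beside 11224 genes by the Pearson correlation of log2(CPM + 10), as a description of points that share libraries and depth. The genes most like Foxp3 were Itgb8 (r = 0.89), Tnfrsf4 (0.89) and Il1rl1 (0.88), and those most like Klrg1 were Ky (0.83), Tmem158 (0.83) and Tnfrsf8 (0.81). Penk was most like Tnfrsf4 (0.90), Ccr8 (0.89) and Sh3rf1 (0.87), and Tnfrsf4 was most like Cd5 (0.93), Izumo1r (0.92) and Ikzf4 (0.90). Il2ra (Osbpl3 0.84, Nrip1 0.83, Traf1 0.83) and Tnfrsf9 (Osbpl3 0.92, Ttc39c 0.91, Acot7 0.88) shared their first gene. Il2rb (Trbc1 0.96, Sh2d2a 0.96, Thy1 0.96) and Tnfrsf18 (Thy1 0.96, Gata3 0.96, Camk4 0.955) shared Thy1 among their nearest genes, and Ikzf2 was most like Sytl2 (0.91), Rgs16 (0.89) and Ctla4 (0.89). Among the members, the highest correlation was that of Il2rb with Tnfrsf18 (0.93) and the lowest that of Foxp3 with Il2rb (0.41).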

How the data were processed

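UMI counts per gene and cell, with cell annotations, were deposited by the authors for 12 libraries. Cell Ranger and the build mm10 are named in the submitters' processing notes, and the Cell Ranger version, the annotation and the use of strand are not given in the sources used here. The labels' protocols name both a fixed RNA kit and a 3' kit, so the chemistry is unsettled. The counts were whole numbers and were used as deposited, per the file headers and values. The members and gene lists were chosen with earlier results of these data known.

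Doublets were called per library from simulated doublets and 3294 of 115612 cells were left out. Counts were summed per tumour and class, and log2 ratios used a pseudocount of 10 CPM. Cells split by a UMI were summed per tumour and arm and tested with edgeR 4.0.16 in R 4.3.3 (quasi-likelihood test, tumour as block because both arms come from the same tumour, Benjamini-Hochberg adjustment over all genes tested, adjusted p under 0.05), after a check on simulated data. DESeq2 1.42.0 was an alternative, beside other size factors, no filter on low counts, no block, each tumour left out, doublets kept, at least 2 UMIs, thinning to 1000 UMIs and pseudocounts of 1 and 50. Python 3.11.15, numpy 2.4.6, scipy 1.17.1, pandas 2.3.3 and matplotlib 3.10.9 were used.

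Each group was 1 tumour, so p-values measure the spread between tumours of different origin. Exact Poisson 95% intervals of CPM cover counting error only, and differences between tumours have no test. Genes were named as members, as list members past the test, as ligands, as the 3 most like genes, or as the 10 largest changes in each direction past the test and of the same sign in every tumour. Single genes outside this rule (Il10, Lag3, the genes just short of the test and the cell markers) were chosen after their values were seen. The naive T cell list is not reported for the Foxp3 comparison.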

Additional observations from a re-analysis of the deposited data

Results flagged for a closer look

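Among 18 sets of 6 tumour values of the members, 1 held a tumour that stood apart from the other 5 by the ratio of its gap to the whole range, where chance gives about 1 in 20. The log2 ratio of Penk between Foxp3+ Cd4+ cells and the other T subtypes was 4.85 in Parental, with the next at 2.26 in M. The ratio of gap to range passed the limit for 6 values by only 0.0001. It also passed with a pseudocount of 1 and after thinning to 1000 UMIs, and it did not with a pseudocount of 50, with doublets kept, by class cells with a Foxp3 UMI, against the other CD4 subtypes, against Cd44+ Cd4+ cells, or with any 1 of the tumours left out. With a tumour other than Parental left out, the ratio of gap to range was 0.6251 to 0.6971, and the limit for 5 values is higher than for 6. In T and NK cells of the Total libraries, Penk with a Foxp3 UMI was 4.42 times its level without one in Parental, inside the 2.33 to 6.97 times of the other tumours. The level of Penk in the Foxp3+ class of Parental (2778 CPM) was below that of M (2915 CPM), and the level in its other T subtypes (86.9 CPM) was below those of the other tumours (374 to 1082 CPM). Of the 702 cells of its other T subtypes, 534 were Cd44- Cd4+ cells, at 5.61 CPM of Penk, and their part in the ratio was not tested. The tumours are of different origin, so they are not replicates of 1 group.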

How the results depend on the processing

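Genes called in the Foxp3 comparison numbered 1722, and 1011 with no replicate block, 982 after thinning to 1000 UMIs and 1299 to 1731 with 1 tumour left out. With no filter on low counts it called 800 higher and 1306 lower, against 892 and 830. In the Klrg1 comparison 117 genes were called, and 39 by DESeq2, 14 with no replicate block, 25 after thinning and 61 (without E) to 143 (without Parental) with 1 tumour left out, with 67 without EM2 and 77 without EM3. Of the 117, 76 were higher and 41 lower. Higher and lower calls were 30 and 9 by DESeq2, 13 and 1 with no block and 23 and 2 after thinning. They were 48 and 13 without E, and 92 and 51 without Parental. In the Penk comparison 31 were called, and 7 by DESeq2, which gave an adjusted p to 359 genes, 0 with no replicate block (181 at an unadjusted p under 0.05), 5 after thinning and 10 (without EM3) to 33 (without Parental) with 1 tumour left out, with 19 without E, 12 without EM1 and 15 without M. Leaving out the block ended the calls of Tnfrsf9 and Penk in the Klrg1 comparison and no other call of a member. Thinning and leaving out a tumour also test fewer cells; beyond that, the cause was not tested.

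Il2rb turned to 0.59 in the Foxp3 comparison among cells with a Cd4 UMI and no Cd8 UMI. In the Penk comparison, Tnfrsf4 was -0.069 with no filter and -0.039 to 0.087 with 1 tumour left out, and Tnfrsf18 was -0.086 and -0.078 to 0.069. Against other CD4 subtypes the median class ratio of the 9 members was 3.41, against 2.17, and that of Il2rb was 0.53. By Foxp3-UMI cells of the Total libraries, 2 members were past the fold in M over E (3.37% of genes higher, 2.1% lower), 1 in EM3 over E (1.23% and 1.02%) and 2 in Parental over M (1.88% and 1.26%). Il2rb in M over E was -0.0029, Penk in EM3 over E 0.23 and Il2ra in EM1 over EM2 -0.092. By class cells with a Foxp3 UMI, 1 member, Penk (1.09), was past it in EM1 over EM2 (0.533% higher, 0.611% lower). Klrg1 had 90 to 682 UMIs per tumour in the class, and Penk 292 to 1181, in a minority of its cells.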
